A study of Saccharomyces cerevisiae with 4 samples.

Results

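Swe1 is the kinase of the morphogenesis checkpoint of budding yeast, and it is described here with 4 genes that act beside it. The 5 genes were taken by name as single rows of the deposited value table, which lists 6211 open reading frames (ORFs). They are SWE1 (YJL187C, chromosome X), the phosphatase gene MIH1 (YMR036C, chromosome XIII), the regulator genes HSL1 (YKL101W, chromosome XI) and HSL7 (YBR133C, chromosome II), and the target kinase gene CDC28 (YBR160W, chromosome II). All 5 had a value on each of the 4 arrays, so no filter on missing values removed any of them. They were chosen by name with the log2 ratios of these same 4 arrays known, so that every value of this comparison counts as used in the choice. Their values are therefore a description and get no test of their own. Where the fit across all genes takes a member in, that count stands beside the share of all genes called, and nothing is read from it.

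Each array set RNA of a culture treated with b-lapachone in DMSO at 10 µg/ml for 1 h against RNA of a culture given 1% DMSO for the same time. Both cultures were the haploid strain BY4741 in log phase in rich medium (YPD) at 28 °C, MATa with his3Δ1, leu2Δ0, met15Δ0 and ura3Δ0 and with functional LYS2. b-Lapachone is a naphthoquinone that cells reduce and oxygen reoxidises, and the series' title calls it DNA damaging. The 4 biological replicates form 1 group of direct comparisons (n = 4), with b-lapachone RNA in Cy3 on replicates 1 and 3 and in Cy5 on replicates 2 and 4. Each value is taken as a log2 ratio of b-lapachone over vehicle. No source used here states the base or the direction, so this direction is likely rather than settled, and the opposite one would turn every sign below. If the columns were instead a fixed ratio of the dyes, turning replicates 1 and 3 would leave a mean of 0.027 for SWE1, 0.13 for MIH1, 0.016 for HSL1, 0.14 for HSL7 and 0.00058 for CDC28. Under a fixed dye ratio, a treatment effect would have opposite signs on arrays of opposite dye order. Across genes, such arrays correlated at 0.0966 (replicates 1 and 2), 0.294 (2 and 3), 0.251 (1 and 4) and 0.444 (3 and 4), all above 0. Arrays of the same dye order correlated at 0.485 (replicates 1 and 3) and 0.393 (2 and 4). The reading of the columns was not tested further.

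As background, Cdc28 is the cyclin-dependent kinase that drives the yeast cell cycle. Swe1, a relative of Wee1, holds it back before mitosis by phosphorylating a tyrosine in its ATP-binding region, and Mih1, a relative of Cdc25, removes that phosphate. In an undisturbed cell Hsl1 and Hsl7 bring Swe1 to the septin collar at the bud neck, where it is phosphorylated further and then degraded. When bud growth, actin or the septins are disturbed, Swe1 stays and nuclear division waits. Much of this control works on the protein, which the arrays did not measure. SWE1 is also transcribed periodically, with a peak in late G1.

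SWE1 had the highest ratio of the 5 genes on every array. Its log2 ratio was 0.51 on replicate 1, 0.56 on replicate 2, 0.45 on replicate 3 and 0.51 on replicate 4. All 4 values lay above 0 and within 0.11 of each other, and both dye orientations gave nearly the same level, 0.53 over the Cy5 arrays and 0.48 over the Cy3 arrays. The mean was 0.51 ± 0.05 (SD, n = 4), or 1.42-fold, and the single arrays ranged from 1.36-fold on replicate 3 to 1.47-fold on replicate 2. On each array SWE1 stood above most of the genes measured there, with 91.4% of them below it on replicate 1, 96.6% on replicate 2, 95.0% on replicate 3 and 96.5% on replicate 4. Its mean ranked at position 91 from the top of the 5112 genes with at least 3 values. Its spread was also small: of the 4574 genes with 4 values, 1.38% had a lower SD, and the median SD was 0.20.

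MIH1, whose phosphatase opposes Swe1, followed at some distance. Its log2 ratio was 0.15 on replicate 1, 0.47 on replicate 2, 0.02 on replicate 3 and 0.23 on replicate 4, with a mean of 0.22 ± 0.19 (SD, n = 4), or 1.16-fold. Every value was above 0, but the one on replicate 3 was close to it. The 2 arrays with b-lapachone RNA in Cy5 averaged 0.35 and the 2 with it in Cy3 averaged 0.09, so MIH1 was higher on both Cy5 arrays than on either Cy3 array. Leaving out replicate 2 took the mean to 0.13. SWE1 and MIH1 were the members above 0 on all 4 arrays, as were 12.8% of the 4574 genes with 4 values, and nothing is read from that count because of how the members were chosen.

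HSL1, the bud neck kinase that leads Swe1 to its degradation, varied most among the 5. Its log2 ratio was -0.29 on replicate 1, -0.45 on replicate 2, 0.08 on replicate 3 and 0.30 on replicate 4. The first pair of arrays lay below 0 and the other pair above it, a split that did not follow the dye, with -0.07 over the Cy5 arrays and -0.10 over the Cy3 arrays. The mean was -0.09 ± 0.34 (SD, n = 4), and the SD was above that of 88.9% of the genes with 4 values. The sign of the mean depended on 1 array, since it was 0.03 without replicate 2 and -0.22 without replicate 4.

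HSL7, the partner that links Swe1 to Hsl1, had log2 ratios of -0.29, 0.11, -0.14 and 0.02 on replicates 1 to 4, with a mean of -0.08 ± 0.18 (SD, n = 4). Both Cy5 arrays lay above 0, at a mean of 0.07, and both Cy3 arrays below it, at a mean of -0.22. The mean without replicate 1 was -0.0035, so most of the distance from 0 came from that array. HSL1 and HSL7 therefore had like means but unlike profiles: on replicate 2 HSL1 was 0.56 lower than HSL7, and on replicates 3 and 4 it was 0.22 and 0.28 higher.

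CDC28, the target of both Swe1 and Mih1, stayed closest to 0. Its log2 ratio was -0.08 on replicate 1, -0.09 on replicate 2, 0.05 on replicate 3 and 0.06 on replicate 4. The mean was -0.01 ± 0.08 (SD, n = 4), and 50.2% of the genes tested had a lower mean. The values fell on both sides of 0, and the means over the Cy5 and the Cy3 arrays were both -0.01. Of the genes with 4 values, 6.76% had a lower SD than CDC28.

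**Figure D1:**
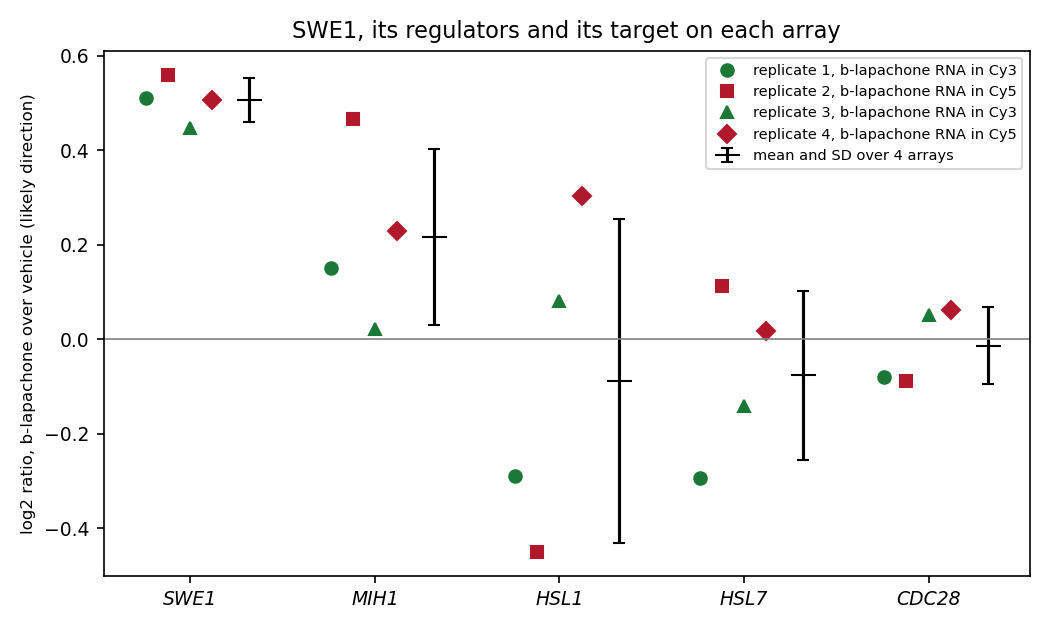
Log2 ratio of b-lapachone over vehicle (likely direction) for SWE1, MIH1, HSL1, HSL7 and CDC28, with 1 point per array, coloured by the dye of the b-lapachone RNA, and a bar for the mean and SD over 4 arrays. The points of SWE1 sit between 0.45 and 0.56, while those of HSL1 spread from -0.45 to 0.30 and those of CDC28 stay within 0.09 of 0.

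Ordered by their means, the genes ran SWE1, MIH1, CDC28, HSL7 and HSL1. Taken array by array, SWE1 exceeded MIH1 by 0.36, 0.09, 0.43 and 0.28 log2 units on replicates 1 to 4, a mean difference of 0.29 ± 0.14 (SD, n = 4). It exceeded its target gene CDC28 by 0.52 ± 0.12 and HSL7 by 0.58 ± 0.16. The difference from HSL1 was 0.60 ± 0.37, because it was 1.01 on replicate 2 and 0.20 on replicate 4. SWE1 was thus the higher one in all 4 of these pairs on all 4 arrays. The next step of the order, MIH1 over CDC28, was 0.23 ± 0.24 and below 0 on replicate 3, so it did not exceed its spread. CDC28, HSL7 and HSL1 lay within 0.08 of each other in mean and changed order between arrays.

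**Figure D2:**
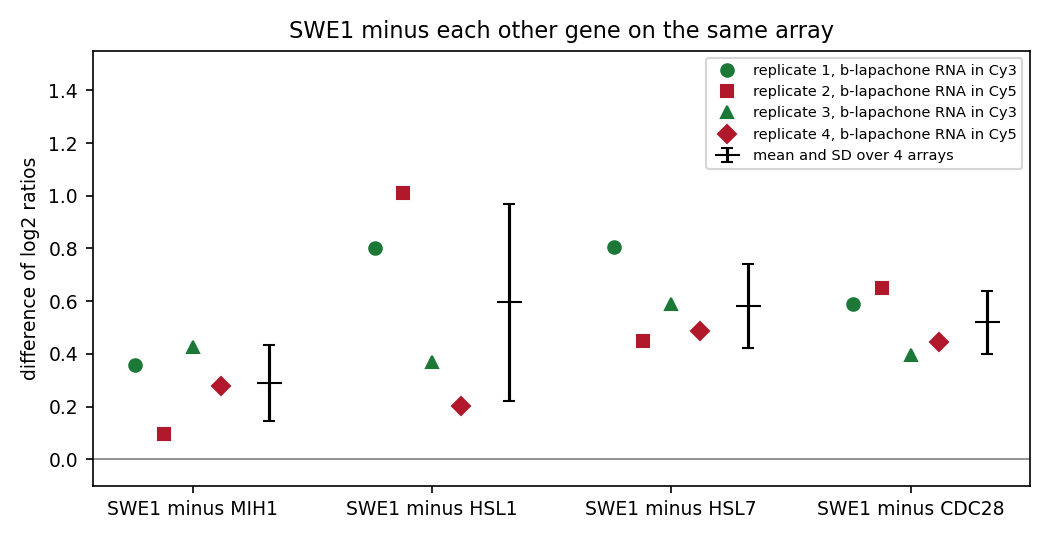
Difference in log2 ratio between SWE1 and each of MIH1, HSL1, HSL7 and CDC28 on the same array, with 1 point per array and a bar for the mean and SD over 4 arrays. Every point lies above 0, from 0.09 for MIH1 on replicate 2 to 1.01 for HSL1 on replicate 2.

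Across all genes, the mean log2 ratio was tested against 0 with limma, and p-values were adjusted by Benjamini-Hochberg over the 5112 genes with at least 3 values, with a threshold of 0.05. That fit called 155 genes, or 3.03% of those tested, 106 higher (2.07%) and 49 lower (0.959%). SWE1 was the only member among them (1 of 5). No support is drawn from this count or from the counts of members that follow, since the same comparison was known when the members were chosen. SWE1 was not among the genes called without replicate 3, where its mean was 0.53, or without replicate 4, where it was 0.51. In both cases limma called 0 of the 5 members, and 1 of them had an unadjusted p under 0.05. With all 4 arrays, 960 of the 5112 genes had an unadjusted p under 0.05. The like count over all genes is not given here for the fits without 1 replicate. Over all genes the calls numbered 27 without replicate 3 and 67 without replicate 4, with the same genes tested. A dye coefficient in the same model called 2 genes of 5112 (0.0391%), and no member (0 of 5).

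**Figure D3:**
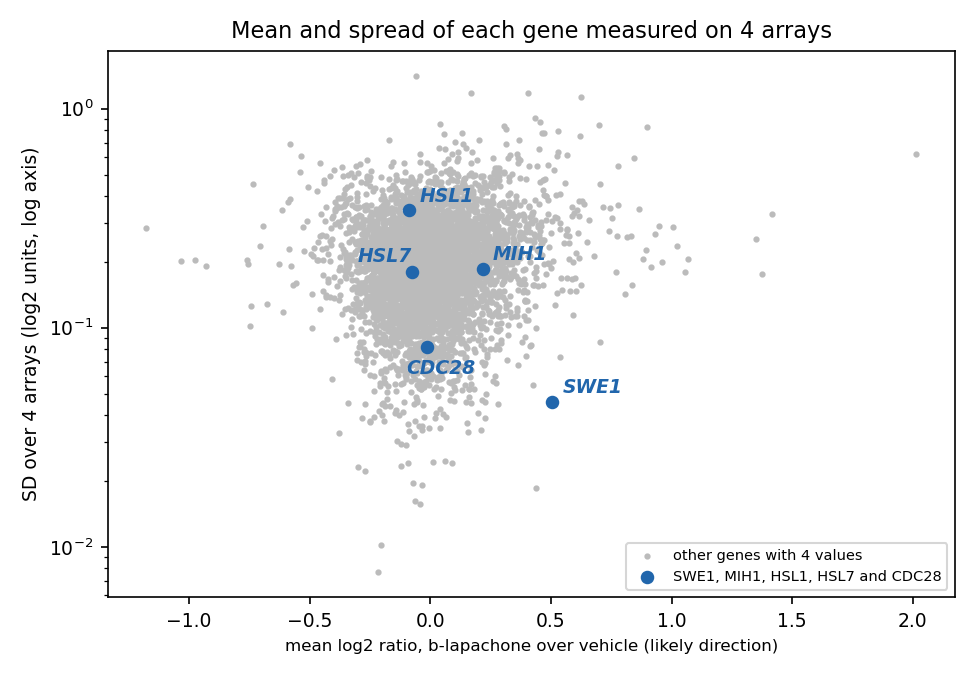
Mean log2 ratio of b-lapachone over vehicle (likely direction) against its SD over 4 arrays on a log axis, for the 4574 genes with 4 values, with the 5 genes of the Swe1 group in blue. SWE1 lies at the right lower edge of the cloud, at a mean of 0.51 and an SD of 0.05, and the other 4 lie inside it.

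The cultures were harvested whole. A change in the share of cells at one stage of the cell cycle and a change in the RNA per cell cannot be told apart in such samples. The values are ratios, so transcript levels of these genes could not be compared with each other, and the strain's markers could not be checked by level. Of 5 genes typical of a cells, 4 had values on all arrays. Of 3 genes typical of alpha cells, STE3 had a value on 1 array, MF(ALPHA)1 on 0 and MF(ALPHA)2 on 4. LEU2 and MET15 had no value on any array, whereas URA3, deleted in this strain, had log2 ratios of 0.29, -0.16, 0.35 and 0.08 on replicates 1 to 4, with a mean of 0.14. HIS3, of which the strain carries the his3Δ1 deletion, had -0.11, 0.32, 0.61 and 0.23, with a mean of 0.26. That mean was above the 0.22 of MIH1 and below the 0.51 of SWE1. A value in the table thus does not by itself show that a full transcript was present.

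The genes around Swe1 were taken from 9 lists with 87 genes in all, of which 81 were tested. Of these 81, 1 was called higher, RLM1, and 2 lower, CLB1 and FAR1, and 13 had an unadjusted p under 0.05. Over all genes, 960 of the 5112 tested had an unadjusted p under 0.05 in the same limma fit. That background stands beside this count and the like counts of single lists below. The calls came to 3.70% of the genes tested on the lists, beside 3.03% of all genes. The lists, like the members, were chosen with earlier results of these data known. Their calls and adjusted p-values are therefore a description, and no support is drawn from them. The median of the 81 means was -0.02, against -0.01 over all genes tested, and 45.7% lay above 0, against 46.8% over all genes.

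Of the kinases and regulators that share the bud neck with Hsl1 and Hsl7, none of 7 passed (limma, 0 calls, with 0 at an unadjusted p under 0.05), with a median of -0.01 and means from -0.20 to 0.17. GIN4 and KCC4, kinases related to HSL1, had means of -0.02 ± 0.19 (SD, n = 4) and -0.01 ± 0.39 (SD, n = 3). GIN4 split like HSL1, at -0.06 on replicate 1, -0.26 on replicate 2, 0.04 on replicate 3 and 0.20 on replicate 4. The same split of signs was seen in CDC28, and so was not particular to these related kinases. KCC4 was at 0.45 on replicate 2, where HSL1 was lowest. ELM1, a kinase that acts on septin organisation, was at -0.15 ± 0.23. CLA4, a kinase of the p21-activated family that phosphorylates Swe1, was at 0.0048 ± 0.33, with 0.48 on replicate 2 and values below 0 on the other arrays. CDC5, the polo kinase that also phosphorylates Swe1, was below 0 on all 4 arrays, at -0.17, -0.15, -0.23 and -0.24. Its mean of -0.20 ± 0.05 was the largest in size on this list and did not pass the test (limma, Benjamini-Hochberg adjusted p = 0.296).

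The septin list held genes whose proteins build the collar that Hsl1 reads, and BNI5, the gene of a septin-binding protein. It had no call among 6 (0 by limma, 1 at an unadjusted p under 0.05) and a median of -0.02. CDC10 had the largest mean, 0.30 ± 0.26, with 0.67 on replicate 1 and 0.12 to 0.24 on the others, and did not pass (adjusted p = 0.185). The phosphatase 2A subunits and Zds proteins, linked to the control of Mih1, had no call among 6 either (0 by limma, 1 at an unadjusted p under 0.05). Their median was 0.05 and ZDS2 was largest at 0.28 ± 0.24. ZDS1 had 3 values that disagreed widely, 1.20, -0.64 and -0.14 on replicates 1 to 3. CDC55, the regulatory subunit most closely tied to mitotic entry, had no value on any array.

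The cyclins, subunits and inhibitors that act on Cdc28 gave 2 of the 3 calls. Of 11 tested, none was higher and 2 were lower, and the median was -0.04. The 2 calls were 18.2% of this short list, beside 3.03% of all genes called and 0.959% called lower. FAR1, whose protein inhibits Cdc28 with G1 cyclins during mating, had log2 ratios of -0.33, -0.65 and -0.62 on replicates 2, 3 and 4 and no value on replicate 1. It fell to -0.53 ± 0.17 (SD, n = 3; limma, Benjamini-Hochberg adjusted p = 0.0434). With 2 of its 3 arrays in the Cy5 orientation a dye effect does not cancel in that mean, and with a dye coefficient it was -0.56 (adjusted p = 0.0364). CLB1, a B-type cyclin of mitosis, had log2 ratios of -0.29, -0.49, -0.57 and -0.31 on replicates 1 to 4. All 4 lay below 0, and CLB1 fell to -0.41 ± 0.14 (SD, n = 4; adjusted p = 0.0483). Its close relative CLB2 was at -0.04 ± 0.11 and did not pass (adjusted p = 0.856). The call of CLB1 was lost without replicate 2 (adjusted p = 0.0967), replicate 3 (0.336) or replicate 4 (0.123), and that of FAR1 without replicate 3 (0.369) or replicate 4 (0.201). FAR1 then had 2 values, fewer than the 3 asked for in the main fit. CLB1 also lost its call when arrays were centred on their median (0.0557), and both CLB1 and FAR1 lost theirs when genes with at least 2 values were tested (0.0598 for CLB1 and 0.0552 for FAR1). CKS1, the small subunit that binds Cdc28, was at 0.08 ± 0.11. SIC1, the inhibitor of Cdc28 with B-type cyclins, had no value on any array.

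Ubiquitin ligase subunits linked to the turnover of Swe1, Hsl1 or cyclins had no call among 10 (0 by limma, 2 at an unadjusted p under 0.05), with a median of 0.0009. MET30, an F-box protein linked to Swe1 degradation, had the largest mean and was above 0 on every array, at 0.33, 0.40, 0.24 and 0.12. Its mean of 0.27 ± 0.12 did not pass (adjusted p = 0.166). Cell polarity and actin genes, whose disturbance the checkpoint answers to, had no call among 15 (0 by limma, 0 at an unadjusted p under 0.05). They had a median of 0.04 and means from -0.20 to 0.21. The highest was that of RSR1, the bud site GTPase (0.21 ± 0.06, n = 3). CDC42, the GTPase at the centre of polarity, was at -0.06 ± 0.02 on 4 arrays.

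The cell integrity pathway, a kinase cascade that answers to wall stress and has been linked to the checkpoint, gave the third call. Of 7 tested, 1 was higher (14.3%, beside 2.07% of all genes) and none lower, with a median of 0.07. RLM1, the transcription factor at the end of the cascade, had log2 ratios of 0.77, 0.56 and 0.93 on replicates 1 to 3 and no value on replicate 4. It rose by 0.75 ± 0.18 (SD, n = 3; limma, Benjamini-Hochberg adjusted p = 0.00839), or 1.68-fold, and its mean was above that of SWE1. Because 2 of its 3 arrays carried b-lapachone RNA in Cy3, a dye effect does not cancel in this mean, and with a dye coefficient it was 0.70 (adjusted p = 0.0128). It was no longer called without replicate 3 (0.66, adjusted p = 0.175), where 2 values remained, fewer than the 3 asked for in the main fit. SLT2, the MAP kinase that acts on Rlm1, was at 0.71, 0.36, 0.76 and -0.03 on replicates 1 to 4, and its mean of 0.45 ± 0.37 did not pass (adjusted p = 0.0971). SLT2 was called when a dye term was added and when replicate 4 was left out. The upstream kinases MKK1, MKK2 and PKC1 had means from -0.20 to -0.03, and BCK1 had 1 value, 1.41 on replicate 4, and was not tested.

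Late G1 genes were looked at because SWE1 is transcribed with them. Among SBF, MBF, their regulators and periodic targets none of 14 passed (limma, 0 calls, with 1 at an unadjusted p under 0.05). The median was -0.10 and 4 of the 14 means lay above 0 (28.6%, against 46.8% over all genes). SWI4, the DNA-binding subunit of SBF, was at 0.20, 0.16 and 0.23 on replicates 2 to 4, a mean of 0.20 ± 0.04 (SD, n = 3) that did not pass (adjusted p = 0.375). PCL2, a periodic cyclin of the kinase Pho85, was largest at -0.29 ± 0.14 (adjusted p = 0.151), and the G1 cyclins CLN1 and CLN2 were at -0.15 ± 0.12 and -0.11 ± 0.10. None of the 14 had a mean as high as that of SWE1, the highest being 0.22. SWE1 was chosen with these ratios known, so nothing is read from that comparison. In the CLB2 cluster, which is expressed on the way into mitosis, 1 of 11 was lower (CLB1) and none was higher. That was 9.09% called, beside 3.03% of all genes, and 3 had an unadjusted p under 0.05 (limma). Of the 11 means, 10 lay below 0 and 9.09% above it, against 46.8% above 0 over all genes. The median was -0.15, beside -0.01 over all genes tested. By array it was -0.17, -0.05, -0.25 and -0.08 on replicates 1 to 4. KIN3 was the 1 gene above 0, at 0.29 ± 0.33.

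**Figure D4:**
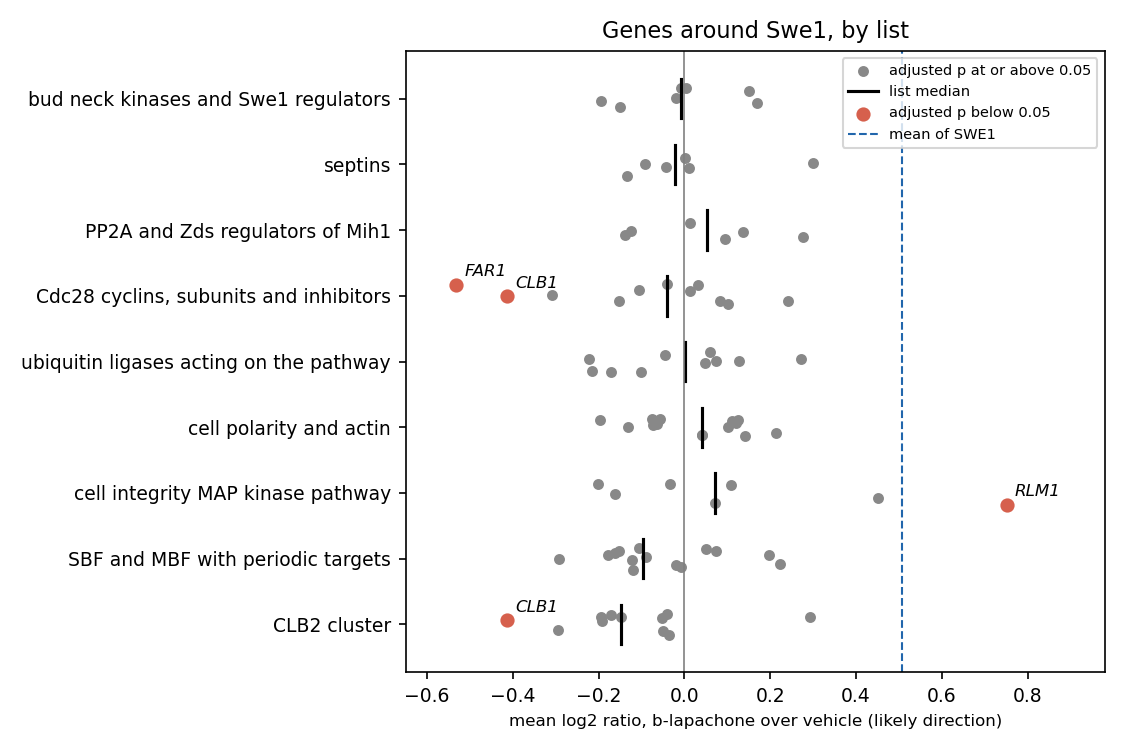
Mean log2 ratio of b-lapachone over vehicle (likely direction) for the tested genes of 9 lists around Swe1, with 1 point per gene, a black bar at each list's median, red points for genes with an adjusted p below 0.05 and a dashed line at the mean of SWE1. RLM1 at 0.75 is the 1 gene to the right of the line, and CLB1, which stands on 2 lists, and FAR1 are the called genes on the left.

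The genes next to the members in the R64 gene order were not called. The neighbours of SWE1 were RPL39, a ribosomal protein gene with log2 ratios of 1.74, -0.26, 0.37 and -0.11, and MNN5, a mannosyltransferase gene at -0.16 ± 0.07. RPL39 varied widely between arrays, and MNN5 lay below 0 on all 4. MIH1 lies between IMP2 (-0.07, n = 3) and MSN2, a stress transcription factor gene (-0.15 ± 0.17). HSL1 lies beside YPF1 (-0.27 ± 0.26) and YKL102C, which had 1 value, 1.57 on replicate 2, the array on which HSL1 was lowest. HSL7 lies between AGP2, a membrane transport gene (-0.21 ± 0.14), and CKS1. CDC28 lies between IFA38 (-0.21 ± 0.21) and CSH1 (-0.13, n = 3). Of these 10 neighbours, 9 had at least 3 values and were tested, with 0 called by limma.

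The profiles most like each member were found among the other 4573 genes with 4 values, by the root mean square difference over the 4 arrays. Closest to SWE1 were AGX1, an aminotransferase gene, at 0.44, 0.46, 0.42 and 0.43 (difference 0.0724), and IDH1, an isocitrate dehydrogenase subunit gene, at 0.46, 0.46, 0.44 and 0.34 (difference 0.0991). Those of MIH1 were PPR1 and UPS2, at 0.0559 and 0.0660. For HSL1 they were SPO14 and GEA1, at 0.0272 and 0.0895, and for HSL7 PRY1 and YHR112C, at 0.0114 and 0.0279. TSR4 and YEL030C-a came closest to CDC28, at 0.0151 and 0.0242. No member was among the 2 closest genes of another.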

How the data were processed

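Total RNA of the 8 cultures was acid-phenol extracted and given Cy3 or Cy5 by indirect labelling, per the labels' protocols, and hybridised in pairs to 4 two-colour arrays. The authors deposited 1 value for each ORF on each array, read here as a log2 ratio. The scanner, the background correction, the authors' normalization and the genome build are stated in none of the sources used here. Signal values were not used here, so spots near background or saturation could not be recognised. Array medians lay from -0.02 to 0.00 and values numbered 4819 to 5534 per array. Across genes, which are not independent, pairs of arrays correlated from 0.0966 to 0.485. Of 6211 ORFs, 5662 matched the R64 gene table by locus tag.

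Genes with at least 3 values (5112) were fitted with limma 3.58.1 in R 4.3.3 (intercept only, two-sided, Benjamini-Hochberg, threshold 0.05). The values were not normalized again. Errors are SDs over arrays, whose number limits the precision. On 20 simulations with 5112 genes, 200 of them changed, 50.7% of changes of 0.5 and 91.6% of changes of 1 (log2) were recovered. Of the simulated calls, 3.78% were false. The simulated noise was independent and normal, with the same spread on all 4 arrays for a gene and no dye effect. On the real arrays the SD over genes ran from 0.27 on replicate 4 to 0.38 on replicate 1, so recovery there may differ. The members and lists were chosen with earlier results of these data known. Named genes were the members, called genes of the lists, the largest of each list, 10 set genes, neighbours and nearest profiles. Others, such as SLT2, ZDS1, BCK1, CDC42, KIN3, CLN1 and CLN2, were named after their values were seen. Alternatives were a dye coefficient, centring, scaling, quantile normalization, other filters on missing values, a robust prior, array weights, a fixed dye ratio and leaving out each replicate. No sequence is printed.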

Additional observations from a re-analysis of the deposited data

Results flagged for a closer look

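MNN5, the neighbour of SWE1, had 1 array far from the others: replicate 4 at -0.26, with replicates 1, 2 and 3 at -0.11, -0.13 and -0.13. Its gap to the nearest other array, as a share of the range over the 4, was 0.883, above Dixon's 95% critical value for 4 values. Chance alone exceeds that value in about 1 gene in 20, and MNN5 was the 1 gene to do so among the 33 named genes examined with 4 values. SWE1, MIH1, HSL1, HSL7 and CDC28 all stayed below it.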

How the results depend on the processing

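The 5 members kept the sign of their means under the dye coefficient, centring, scaling, quantile normalization, both other filters and the robust prior. The mean of CDC28 turned above 0 with array weights, without replicate 1 and without replicate 2, and that of HSL1 without replicate 2. The mean of SWE1 lay between 0.49 and 0.53 when single replicates were left out, and was not called without replicate 3 or without replicate 4. The calls over all genes (155) numbered 263 with array weights and from 27 to 179 when 1 replicate was left out. The 3 pathway calls numbered 1 with values on 4 arrays, where RLM1 and FAR1 could not be tested, and 1 with values on at least 2 arrays, where CLB1 and FAR1 were lost. They numbered 2 with centred arrays, where CLB1 was lost. The pathway calls ranged from 0 to 3 when 1 replicate was left out, the 0 being without replicate 3 (limma, 8 at an unadjusted p under 0.05). Read as a fixed dye ratio, the table gave 1 call over all genes and 0 pathway calls (limma, 4 at an unadjusted p under 0.05), with means of 0.027 for SWE1, 0.14 for HSL7, 0.015 for CLB1 and -0.38 for RLM1. Turning the sign on replicates 1 and 3 by itself moves the mean towards 0 for a gene with like ratios on all 4 arrays. The cause of the other changes was not tested. Each array is itself 1 pair of cultures, so the test of the ratios against 0 already used that pairing. The ratios form a single group, and no other pairing was modelled.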
